A study of Homo sapiens with 2 samples.

Results

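The USP family of deubiquitinases was read on 2 expression arrays, 1 of MKN28 cells with Sox2 overexpression and 1 of MKN28 control cells, going by the labels. Members were the genes whose symbol is USP followed by a number and at most 1 letter, each read by at least 1 probe set that the platform annotation gives to that gene alone. This gave 46 of 19775 genes, with 131 of 41091 such probe sets. The RefSeq gene table lists 52 symbols of this form, and the other 6, USP6, USP10, USP15, USP32, USP41P and USP50, were not analysed as members. Each gene was represented by its brightest probe set, the one with the highest mean log2 intensity. Members with an intensity of 100 or more in either array, 13 genes, were set against the 33 dimmer ones. The 2 classes were thus chosen by the same intensities that give the differences, so every value below is a description of these 2 arrays.

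MKN28 is an established human gastric adenocarcinoma line, listed as a misidentified derivative of the line MKN74. Per the labels, the Sox2 cells were made by lentiviral infection and puromycin selection, and what the control cells (NC) received is not stated. SOX2 is a transcription factor that helps keep stem cells undifferentiated. Each group had 1 sample and 1 array, so no difference has a replicate error, no test was possible, and fewer cells of a type cannot be told apart from less RNA per cell.

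Ubiquitin is a small protein that cells attach to other proteins, singly or in chains, often to mark them for destruction by the proteasome. The ubiquitin-specific proteases, or USPs, are cysteine proteases that cut it off again and form the largest family of deubiquitinases in human cells. They recycle ubiquitin, rescue substrates from the proteasome and edit the signals that ubiquitin carries on histones, receptors and DNA repair factors.

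Signal was low on both arrays. The median intensity over all probe sets was 34.2 in the Sox2 array and 34.3 in the control array, and an intensity of 100 was reached by 10.7% of probe sets in the Sox2 array and 10.5% in the control array. SOX2 itself did not settle the label, since its brightest probe set read 172 in the Sox2 array and 123 in the control array, and 3 others read 27.4, 38.4 and 11.4 in the Sox2 array against 22.2, 39.05 and 15.7 in the control array. Directions below therefore rest on the labels. Of 9 epithelial and gastric markers only CLDN4 reached 100 in either array, and EPCAM, an epithelial surface protein, read 4.96 in the Sox2 array and 6.32 in the control array. All 4 mesenchymal markers reached 100, while none of 4 leukocyte and endothelial markers did. VIM, CDH2 and COL1A1 reached it by a single probe set each. The other VIM probe set read 10.7 in the Sox2 array and 9.45 in the control array, and the other of CDH2 24.9 against 19.8. The bright probe sets of COL1A1 and FN1 all carry the suffix _x_at, given to probe sets that may also bind other transcripts. All 24 probe sets of the bacterial poly-A spike-ins were lower in the Sox2 array, by a median log2 difference of -0.75. The part of these levels in the results was not tested.

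Among the 46 USP genes, 3 were higher in the Sox2 array by 2-fold or more, and none was lower by as much. Over all 19775 genes, 1.91% were at least 2-fold higher and 0.895% at least 2-fold lower. The 3 were USP38, USP47 and USP9X, all in the brighter class. In the family 26 genes lay above 0, or 56.5%, against 49.5% of all genes. The median log2 difference, Sox2 minus control, was 0.06 for the 46 members and -0.0034 for all genes. It was 0.36 for the 13 brighter members, against -0.013 for the 33 dimmer ones, a gap of 0.38. Over all genes, the 4488 with either array at 100 or more had a median of 0.03 and the 15287 others -0.011, a gap of 0.04. Using the spike-ins to scale the arrays would add 0.75 to every difference and leave the gap as it is.

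**Figure D1:**
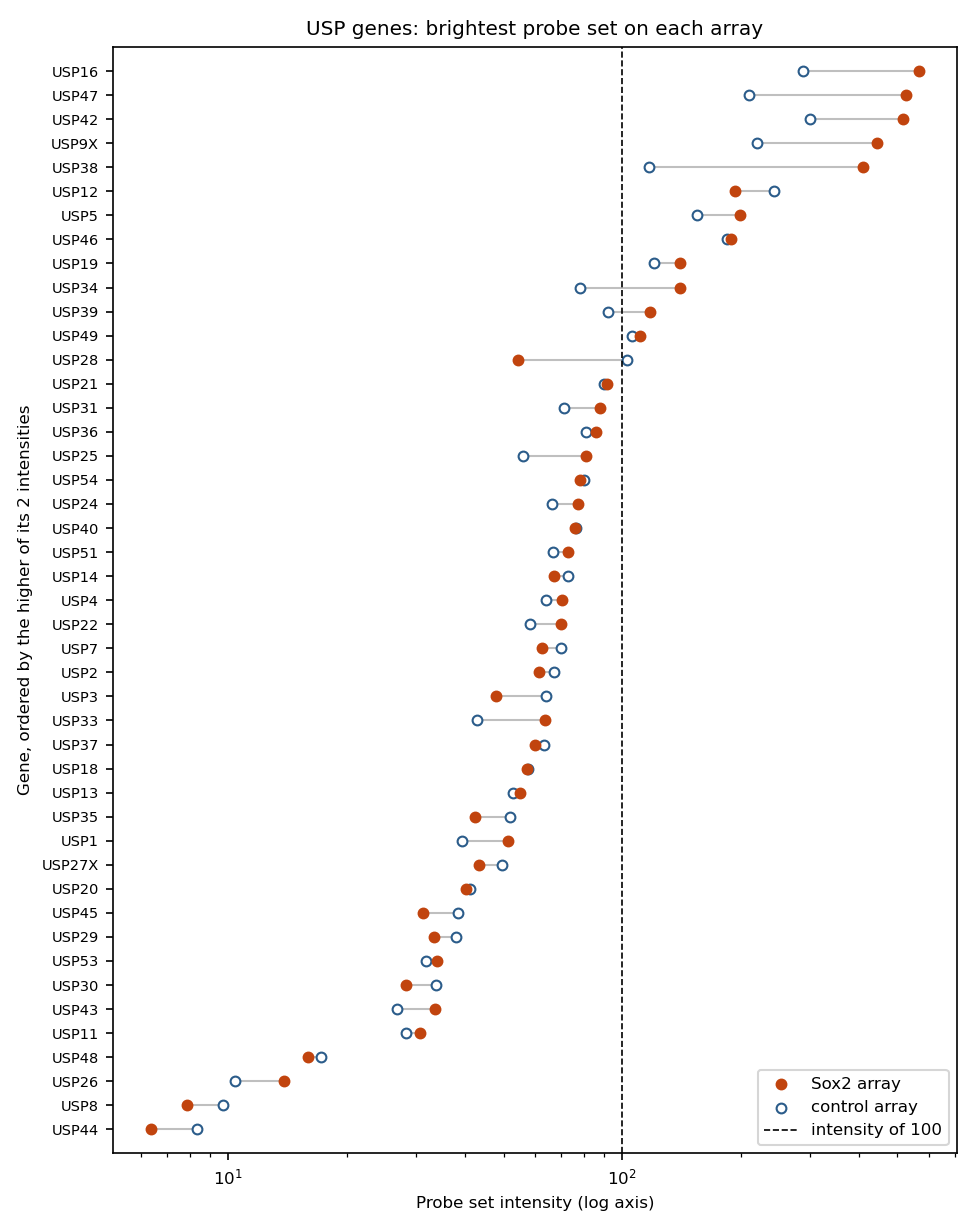
Intensity of the brightest probe set of each USP gene (log axis) in the Sox2 array (filled) and the control array (open), 1 array each, with genes ordered by the higher value and a dashed line at 100; USP9Y is left out. The 13 genes that reach the line include the widest gaps, with USP38 at 408 and 117, while most dimmer genes have nearly coinciding points.

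Of the 13 brighter members, 6 were at least 1.5-fold higher in the Sox2 array and 1 was at least 1.5-fold lower. Among all 4488 genes at 100 or more in either array, 14.6% were at least 1.5-fold higher and 7.09% at least 1.5-fold lower, while 5.55% were at least 2-fold higher and 1.69% at least 2-fold lower. In all, 11 of the 13 lay above 0, against 53.5% of those 4488 genes. A gene that reaches 100 in 1 array only must differ somewhat, which applies to USP34, USP39 and USP28. With 100 or more required in both arrays, 10 members were left, with a median log2 difference of 0.57, and USP38, USP47 and USP9X were again the 3 at 2-fold, against 5.15% of 3419 genes. Since these intensities chose the class, the shares are given as background and nothing is read from them.

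Repeated readings of 1 gene give the only measure of error here. From 735 genes with several probe sets at 100 or more, the spread of a single probe set's log2 difference, as a robust SD, came to 0.22, and it was 0.30 for dimmer probe sets, from 9014 genes. This spread lies between probe sets read on the same 2 arrays, so it holds no variation between cultures or arrays. It need not be purely technical, since probe sets of 1 gene may read different transcripts. By it, the differences of USP5, USP39, USP19, USP49, USP46 and USP12 are within 2 SD of 0.

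USP38, a deubiquitinase known from innate immune signalling, where it limits the kinase TBK1, had the largest difference of the family. Its brightest probe set read 408 in the Sox2 array and 117 in the control array, a log2 difference of 1.80 or 3.49-fold. Only 0.0891% of the 4488 genes at 100 or more differed upward by at least as much, USP38 included. A much dimmer probe set read 17.8 against 9.79, a difference of 0.86, and another read 34.2 against 31.0, a difference of 0.14. All 3 readings were thus higher in the Sox2 array, by very unequal amounts. Averaged over its probe sets USP38 differed by 0.93, just under 2-fold.

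USP47, which deubiquitinates the base excision repair polymerase POLB, was the only member with more than 1 probe set at 100 or more. The 3 read 526 against 210.5, 166 against 90.02 and 139.5 against 39.3, in the Sox2 and control arrays, which are log2 differences of 1.32, 0.89 and 1.83. The last 2 reached 100 in the Sox2 array only, so the limit itself fixed their direction. Its remaining probe sets read 33.3 against 34.3 and 17.5 against 19.3 and so did not share the difference. Where on the transcript these probe sets lie is not known here, and the brighter ones may read overlapping stretches. All USP47 probe sets carry the suffix _s_at, given to probe sets that may bind several transcripts. Leaving such probe sets aside was therefore not possible for USP47.

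USP9X, an X-linked deubiquitinase that stabilises the survival protein MCL1 and acts at cell junctions, lay just past the 2-fold rule. It read 445 in the Sox2 array and 220.4 in the control array, 2.02-fold. Its dim probe sets went both ways, at 23.6 against 14.5, 15.2 against 19.1 and 11.0 against 16.2. The average over the 4 differed by 0.20, so that the call rests on the brightest reading alone. Its difference was 0.70 once probe sets with the suffixes _x_at and _s_at, which may bind several transcripts, were left aside, and it was also under 2-fold with quantile normalization, lowess centring or an offset of 16.

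At the other end, USP28 was the 1 brighter member at least 1.5-fold lower. USP28 stabilises the oncoprotein MYC and takes part in the p53 response. Its brightest probe set read 54.3 in the Sox2 array and 103 in the control array, a log2 difference of -0.92. A second probe set read 53.6 against 50.1, close to the first in the Sox2 array only, a difference of 0.10, and the last read 22.1 against 28.6. The first carries the suffix _x_at, which Affymetrix gives to probe sets that may also bind other transcripts, and without such probe sets the USP28 difference was 0.10.

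The promoters of USP38 and USP47, the members with the highest differences, and of USP28, the lowest brighter member, are shown as RefSeq gives them on GRCh38.p14, from 250 bases before to 50 after the annotated start. Capitals mark the letters GGGCGG (a GC box), CCAAT and CATTGT (a core of SOX binding sequences), searched on both strands, where adjoining or overlapping matches run together. USP38 lies on the plus strand at chr4:143184667-143184966, USP47 on the plus strand at chr11:11841722-11842021 and USP28 on the minus strand at chr11:113875523-113875822.
USP38: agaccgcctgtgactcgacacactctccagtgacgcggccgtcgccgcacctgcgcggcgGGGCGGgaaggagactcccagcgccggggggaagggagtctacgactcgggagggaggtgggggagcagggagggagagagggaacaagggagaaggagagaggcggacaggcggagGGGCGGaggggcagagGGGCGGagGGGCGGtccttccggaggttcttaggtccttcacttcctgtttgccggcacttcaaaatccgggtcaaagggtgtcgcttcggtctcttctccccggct
USP47: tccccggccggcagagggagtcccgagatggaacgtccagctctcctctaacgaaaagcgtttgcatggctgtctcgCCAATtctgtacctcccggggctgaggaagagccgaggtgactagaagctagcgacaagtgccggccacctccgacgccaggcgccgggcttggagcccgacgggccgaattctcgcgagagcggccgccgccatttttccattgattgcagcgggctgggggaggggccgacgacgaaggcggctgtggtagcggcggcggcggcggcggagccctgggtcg
USP28: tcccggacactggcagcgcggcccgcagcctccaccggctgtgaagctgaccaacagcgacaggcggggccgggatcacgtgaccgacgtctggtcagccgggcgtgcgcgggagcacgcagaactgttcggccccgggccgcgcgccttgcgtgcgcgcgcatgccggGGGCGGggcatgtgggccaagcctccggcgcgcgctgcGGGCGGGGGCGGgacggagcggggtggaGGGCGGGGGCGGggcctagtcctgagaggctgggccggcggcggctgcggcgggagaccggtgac
The USP38 window held 4 GC boxes and the USP28 window 5, while the USP47 window held 1 CCAAT and no GC box. None of them held CATTGT. In 15382 promoter windows of genes on the array, GGGCGG was present in 58.9%, CCAAT in 36.1% and CATTGT in 8.09%. The table held 34 of the 46 members. Of these, 27 held GGGCGG (79.4%), 10 held CCAAT (29.4%) and 3 held CATTGT (8.82%). Whether these shares differ from those over all genes was not tested. A match is a run of letters, and the factor's binding was not measured.

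Members that act on histones were spread over both classes. USP16, which removes ubiquitin from histone H2A, read 566 in the Sox2 array and 288 in the control array, a log2 difference of 0.97 and so just under 2-fold. Its other probe sets read 44.7 against 55.4 and 10.4 against 6.20, on opposite sides of 0, and its bright one is an _x_at probe set. USP42, another deubiquitinase tied to transcription, read 518 in the Sox2 array and 300.3 in the control array, a difference of 0.79, but its 4 dim probe sets were all lower, with log2 differences between -0.58 and -0.08. USP49, which acts on histone H2B, read 111 against 106. All 7 of its probe sets lay close together, with log2 differences between -0.09 and 0.35, which made it the most evenly read of the brighter members with many probe sets. The SAGA deubiquitinase USP22 read 70.0 in the Sox2 array and 58.5 in the control array, and its close relatives USP27X and USP51 read 43.3 against 49.6 and 72.8 against 66.6. USP7, which deubiquitinates MDM2 and p53, read 62.7 against 69.8, and its 4 probe sets were all lower, by at most 0.36.

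USP34, which acts on axin in the Wnt pathway and is the longest brighter gene, read 140.3 in the Sox2 array and 78.0 in the control array. All 6 of its probe sets were higher in the Sox2 array. Yet the brightest differed by 0.85 on the log2 scale and the other 5 by 0.11 to 0.38, so the size was not shared. USP19, anchored in the endoplasmic reticulum, read 140.4 against 121, and its second probe set 53.2 against 44.8, with log2 differences of 0.22 and 0.25 that lie close together.

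Of the enzymes that handle free ubiquitin chains, USP5, which takes apart unanchored chains, read 199.8 in the Sox2 array and 155 in the control array. Its relative USP13 read 55.1 against 52.9. The proteasome-bound USP14 read 67.2 against 72.8 by its brightest probe set but 35.9 against 20.5 by another. USP39, a splicing factor of the tri-snRNP that lacks protease activity, read 118 in the Sox2 array and 92.0 in the control array. Both USP5 and USP39 had a single probe set, so no second reading bears on their differences of 0.36 each.

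The close relatives USP12 and USP46, which need the cofactor UAF1 (WDR48) for activity, differed little. USP12 read 193 in the Sox2 array and 243 in the control array, and USP46 189 against 185. Their dim probe sets differed by -0.05 for USP12 and by -0.33 to 0.37 for USP46. USP1, the third enzyme that UAF1 activates and a regulator of FANCD2 and PCNA, read 51.4 against 39.3 by 1 probe set and 17.1 against 21.6 by the other.

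**Figure D2:**
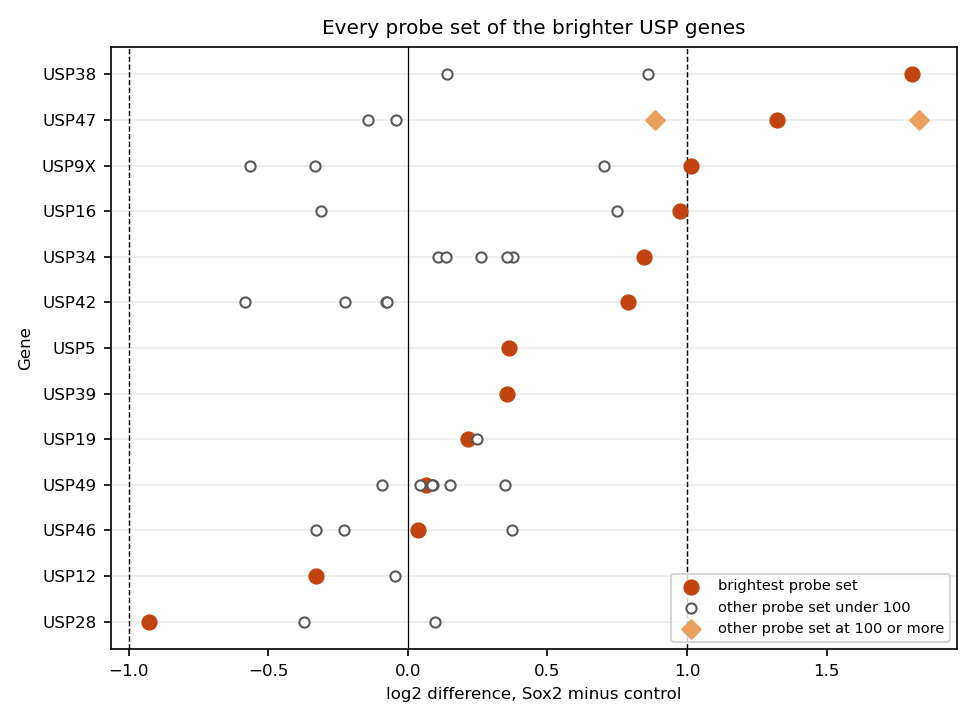
log2 difference (Sox2 minus control) of every probe set of the 13 brighter USP genes, with the brightest probe set filled, others at 100 or more as diamonds and others under 100 open; dashed lines mark 2-fold. USP47 alone has diamonds, at 0.89 and 1.83, and in USP42 the brightest probe set lies at 0.79 with the 4 others below 0.

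Agreement between probe sets was limited. The 11 brighter members with several probe sets had 31 further ones under 100 in both arrays, of which 17 lay above 0, with a median log2 difference of 0.09 and none at 2-fold. Over all genes at 100 or more, 51.2% of 6706 such probe sets lay above 0, with a median of 0.0079. In 8 of the 11 the second brightest probe set had the sign of the brightest, against 57.1% of 3244 genes with a brightest probe set at 100 or more. Across these 11 members the brightest probe set differed by a median of 0.79 and the second brightest by 0.11. The second brightest was dimmer by a median of 5.20-fold, so the further readings come from the range where the spread is larger. Over the whole family, 10 of 35 members with several probe sets had all of them on 1 side of 0, against 34.2% of 10523 genes. Counting only probe sets at 100 or more, USP47 was the 1 member with several, all above 0, against 66.0% of 735 genes with 1 sign. At a limit of 50, the probe sets past it had 1 sign in 9 of 15 members. No share over all genes was taken at that limit.

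**Figure D3:**
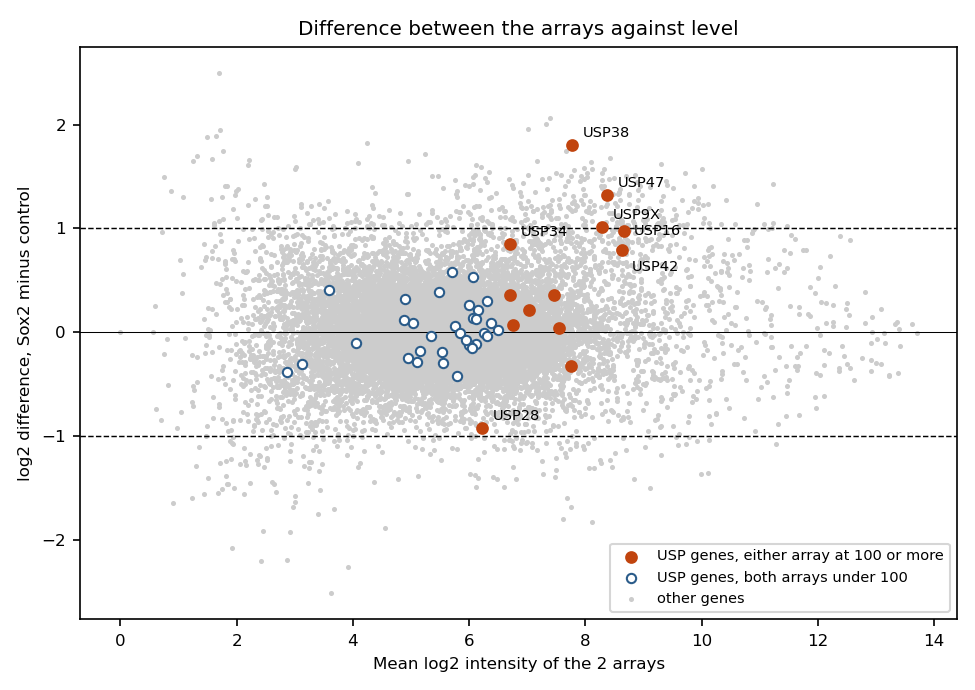
log2 difference (Sox2 minus control) against mean log2 intensity for the brightest probe set of each gene, with brighter USP genes filled, dimmer USP genes open and other genes grey; dashed lines mark 2-fold and USP9Y is left out. The 5 USP genes with the highest differences lie among the brighter genes, and USP28 at -0.92 is the lowest member shown.

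None of the 33 dimmer members was at least 1.5-fold higher in the Sox2 array, and 1, the Y-linked USP9Y, whose values are not reported, was at least 1.5-fold lower. Among the 15287 genes with both arrays under 100, 4.21% were at least 1.5-fold higher and 3.77% at least 1.5-fold lower. The other 32 lay between -0.43 and 0.57, with 15 above 0, against 48.3% of the genes under 100. USP21 (91.4 in the Sox2 array and 90.0 in the control array) and USP31 (87.9 against 71.2) were just under the limit of 100, and USP28 and USP49 just over it. The highest difference was that of USP33, which acts on the centrosomal protein CP110, at 63.7 against 42.8. Its dimmest probe set had the opposite sign, at 4.56 against 9.07. Next came USP25, the relative of USP28, at 81.0 in the Sox2 array and 56.0 in the control array, with 4 of its 5 probe sets above 0. The lowest printed was USP3, a histone H2A deubiquitinase, at 47.8 against 64.3, although its other probe set read 51.8 against 36.4.

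Several other well-known members were also in the dimmer class, and nothing is read from their differences. USP8, which acts on the EGF receptor at endosomes, read 7.85 in the Sox2 array and 9.72 in the control array, and USP44, a mitotic checkpoint factor, 6.38 against 8.34. USP48 had 5 probe sets, all lower in the Sox2 array, but none read more than 17.2. USP53, a protein of tight junctions, had 1 probe set at 24.8 against 11.5 and another at 1.64 against 3.51, which are 2-fold differences in opposite directions. USP18, which removes the ubiquitin-like ISG15, read 57.2 against 57.8, and the mitochondrial USP30 28.3 against 33.7. The testis genes USP26 and USP29 read 13.8 against 10.4 and 33.4 against 37.9. All of these readings lay under 100, and no detection call was available.

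Brightness and difference were also set side by side across genes, as a description. Over the 46 members the Spearman correlation of mean log2 level with log2 difference was 0.49, and over the 13 brighter ones 0.59. Over the 33 dimmer members it was 0.31. Among genes with a genomic length, it was 0.10 over the 4482 at 100 or more and -0.0078 over the 15253 under 100. No value over all genes was taken to set beside the 0.49. These genes share their arrays and their level is built from the same 2 values as the difference. At a limit of 200 in place of 100, 6 members were left with a median of 0.99, and at a limit of 50, 33 members with 0.13.

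Gene length moved with the differences among the brighter genes of the array. By RefSeq (GRCh38.p14), the brighter USP genes had a median genomic length of 77.7 kb and the dimmer ones 64.9 kb, against 23.9 kb for genes at 100 or more. Among the latter, the share at least 2-fold higher was 1.75% under 10 kb, 2.37% from 10 to 30 kb, 8.23% from 30 to 100 kb and 13.0% over 100 kb. No brighter member was shorter than 10 kb. USP47, at 120 kb, and USP9X, at 151 kb, belonged to the longest class, whose median log2 difference was 0.21, and USP38, at 39.0 kb, into the class before it. Within the 13 members the Spearman correlation of length with difference was 0.11, against 0.27 over 4482 genes at 100 or more. It was 0.0083 over all 46 members and 0.07 over 15253 genes under 100. With the trend removed, USP38 and USP47 were still at least 2-fold higher, USP9X differed by 0.77 and USP28 was at least 2-fold lower at -1.11. The part of length in these differences was not tested beyond this.

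**Figure D4:**
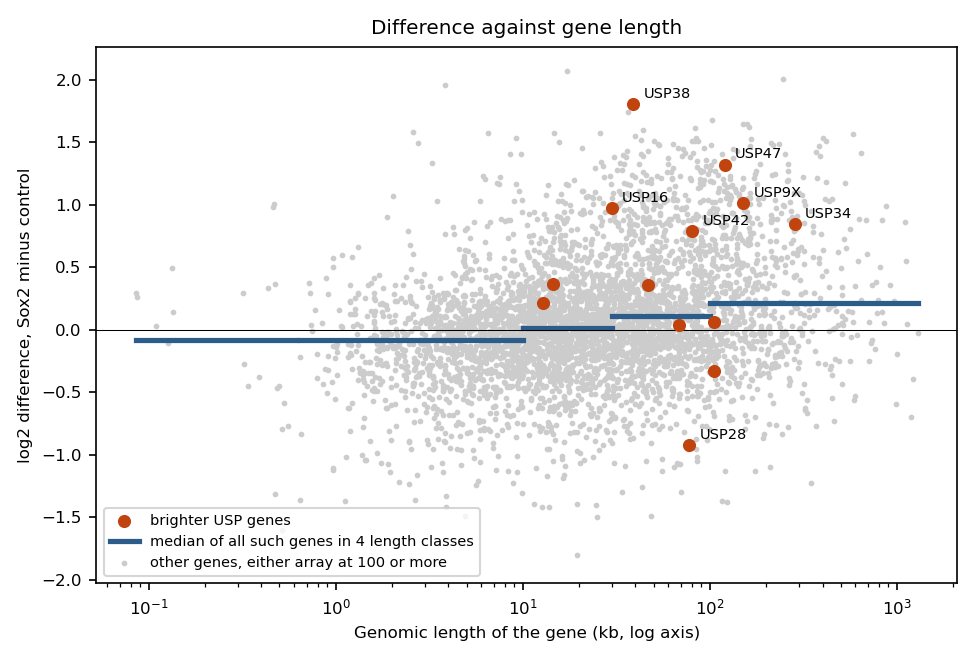
log2 difference (Sox2 minus control) against genomic length (kb, log axis) for genes at 100 or more in either array, with the 13 brighter USP genes filled, other genes grey and bars at the median of all such genes in 4 length classes. The bars climb from -0.08 under 10 kb to 0.21 over 100 kb, and USP38, USP47, USP9X, USP16, USP34 and USP42 lie well above the bar of their class.

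Other parts of the ubiquitin system were read from lists of deubiquitinases outside the USP names and of USP cofactors. The first list went by protein family and so also holds proteins with another activity, such as USPL1. Of its 39 genes measured, 2 were at least 2-fold higher in the Sox2 array and 2 at least 2-fold lower, against 1.91% and 0.895% of all genes. At 1.5-fold the counts were 5 higher and 3 lower, against 6.56% and 4.53%, and the list's median log2 difference was -0.017. OTUD4, of the OTU family, read 3915 in the Sox2 array and 1455 in the control array, 2.69-fold higher, with further probe sets differing by 1.29, 0.60 and -0.14. STAMBPL1, an endosomal JAMM protease, read 173 against 85.0 (2.03-fold higher), but its 3 other probe sets differed by less than 0.1. MPND, a JAMM protein, read 51.1 in the Sox2 array and 114 in the control array (2.23-fold lower) by its only probe set. EIF3F, an initiation factor subunit with a JAMM domain, read 177 in the Sox2 array and 278 in the control array, under 2-fold, and all 3 of its probe sets were lower. The remaining gene at 2-fold was USPL1, a SUMO protease with a USP fold, at 26.7 against 60.1, and its other probe set read 17.5 against 16.2.

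Of 16 genes on the cofactor list, 3 were higher in the Sox2 array by 2-fold or more, and none was lower by as much. At 1.5-fold the counts were 6 higher and none lower. The list also holds relatives of cofactors, with G3BP2 among the 3 and G3BP2 and ATXN7L3B among the 6. All 6 were among the 10 listed genes at 100 or more. Over all genes, the shares higher and lower were 1.91% and 0.895% at 2-fold and 6.56% and 4.53% at 1.5-fold. Over all genes at 100 or more, they were 5.55% and 1.69% at 2-fold and 14.6% and 7.09% at 1.5-fold. The list's median log2 difference was 0.14. G3BP2, a stress granule protein and relative of the USP10 cofactor G3BP1, read 1530 in the Sox2 array and 576 in the control array, and its 2 other probe sets 472 against 182 and 287 against 112. These 3 readings differed by 1.36 to 1.41 on the log2 scale and so agreed closely. G3BP1 itself read 344 against 185, with dimmer probe sets differing by -0.45 to 0.66, all above 0 except the lowest. PSMD2, a proteasome base subunit, read 1912 in the Sox2 array and 721 in the control array by a single probe set. WDR20, which activates USP12 and USP46, read 131 against 53.1, but its 2 dimmer probe sets differed by 0.010 and -0.97. GMPS, a partner of USP7, read 493 against 249.5 (1.97-fold higher), with dimmer probe sets differing by 0.49 and -0.06. ATXN7L3B, a relative of the SAGA adaptor ATXN7L3, read 239 against 130 by 1 probe set and 62.4 against 61.7 by the other. ATXN7L3 and ENY2, which form the SAGA deubiquitinase module with USP22, read 381 against 408 and 3383 against 3716. The dimmer probe sets of ENY2 differed in the opposite direction, by 0.20 and 0.57. UAF1 (WDR48) read 136 against 165 by its brightest probe set and 122 against 116, in the opposite direction, by another above 100. UBB, a ubiquitin gene, read 5045 against 4830.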

How the data were processed

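The authors deposited 1 intensity per probe set and array, on a linear scale, for 54675 probe sets. RMA is the only tool named, per the submitters' processing notes, and neither its version, its settings nor the last scaling step is given there. RMA usually ends in log2 values, so how the deposited intensities became linear is not known.

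Intensities were taken to log2 as they stood. The annotation gave 41091 probe sets to a single gene. Left out were 1801 that name several genes, 11721 with no gene and 62 Affymetrix controls. Sample groups came from the labels. With 1 array per group the precision is limited by that number, no test was possible, and genes were counted by a difference of at least 2-fold or 1.5-fold. Members, lists and role groups were chosen with earlier results of these data known. Named were all brighter members, dimmer members as described, and listed genes at 1.5-fold and 100 or more, while some others (cofactors and dimmer members under 1.5-fold, and USPL1) were chosen after their values were seen. The counting by fold was tested on simulated data with a single probe set per gene. That could not test the choice of probe set or the brightness limit. Alternatives covered the choice of probe set, possible cross-hybridisation, scaling, an offset of 16, the fold and the brightness limit. Spike-in scaling and removal of the length trend were added after seeing the data. Lowess used a span of 0.3. Python 3.11.15, numpy 2.4.6, pandas 2.3.3, SciPy 1.17.1, statsmodels 0.14.6 and matplotlib 3.10.9 were used.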

Additional observations from a re-analysis of the deposited data

Results flagged for a closer look

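One signal lay outside the genes compared. A probe set that the annotation lists for both MIR6125 and USP15, and which therefore stood for neither, read 433 in the Sox2 array and 235 in the control array, a log2 difference of 0.884. Of the 3 other probe sets with this listing, 1 read 40.6 against 26.8, another 11.3 against 10.7 and the last 32.1 against 42.8, so they lay on both sides of 0.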

How the results depend on the processing

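The count of USP genes at least 2-fold higher was 3, and it was 0 when probe sets were averaged, 6 at 1.5-fold and 15 with the arrays scaled on the spike-ins. In the 7 other settings it lay between 2 and 4, and USP38 and USP47 were among the genes counted each time. Leaving out _x_at and _s_at probe sets could change neither of them. All USP47 probe sets carry the suffix _s_at, and the brightest of USP38 carries neither suffix. The count of genes lower was 0, and became 2 at 1.5-fold and 1 with the length trend removed. The median log2 difference of the brighter members, 0.36, was 0.82 by the probe set with the largest difference. In that setting USP19, USP46 and USP49, with small differences, read under 100 and left the class. The brighter median was 0.13 at a limit of 50, 0.99 at a limit of 200 and 1.11 with spike-in scaling. Its gap to the dimmer members, 0.38, was 0.87 by the probe set with the largest difference and 0.96 at a limit of 200. The gap lay above 0 in the settings tried, of which median centring and spike-in scaling cannot change it. Each other choice of probe set formed both classes anew, so those gaps do not compare the same members. Averaging left only USP5 and USP39, read by 1 probe set each, in the brighter class. Leaving out _x_at and _s_at probe sets took USP9X, USP28, USP34 and USP46 out of it. Spike-in scaling also took the dimmer members' median to 0.74 and the share of members above 0 to 97.8%. The median of the genes on the lists of other deubiquitinases and cofactors became 0.79 with it. The brighter class held 33 genes at a limit of 50 and 6 at a limit of 200. At a limit of 200, and with 100 required in both arrays, no member had several probe sets past the limit, so their agreement had no value. Of 117 values of single members under the alternatives, 33 moved by more than the SD of 0.22 between probe sets. Spike-in scaling had to move every one of these members and median centring could move none, so those outcomes were fixed in advance. No array could be left out. No paired analysis was possible because each group had 1 array.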
